A study of Mus musculus with 4 samples.

Results

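Nuclear receptors are transcription factors that bind DNA and, in most cases, are switched by a small fat-soluble ligand. In the liver a group of them senses bile acids, oxysterols, fatty acids, thyroid hormone and foreign chemicals and sets the expression of metabolic genes, often as pairs with an RXR partner, while coregulator proteins carry the signal to chromatin. Others act mainly in retina, brain, steroid-producing glands, gonads or fat. CpG-rich starts of genes are generally kept free of DNA methylation whether or not the gene is used, so methylation at a start and methylation inside the gene body carry different information.

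CpG methylation was examined at 40 mouse genes of this family, chosen by name: 9 receptors of liver metabolism (Nr0b2, Ppara, Nr1h3, Nr1h4, Nr1i2, Nr1i3, Rxra, Nr5a2 and Thrb), 17 known mainly from other tissues and 14 expressed broadly. Their RefSeq bodies with 3 kb on each side held 5090 of the 1276684 CpG cytosines measured in all 4 mice. Of these, 2883 lay within 1000 bp of a curated start (called promoter below), 1617 in the rest of the transcribed span (body) and 590 in the flanks. All 40 genes had at least 1 measured cytosine. A gene value is the mean over its cytosines of freqC, the percent of reads showing C after bisulfite treatment, and was given where at least 5 cytosines were measured. This left 36 promoter values and 34 body values.

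The DNA came from livers of 4 male mice aged 6 to 8 weeks on a normal diet. Mixed-1 and Mixed-2 were of an undefined mixed background that includes C57BL/6J and other strains, and B6-1 and B6-2 were C57BL/6. Each pair was housed at its own institution and the B6 libraries were deeper. Coverage summed over CpG cytosines, in which a read counts once at each cytosine it spans, was 99215153 and 91886997 against 60654199 and 65176203. Strain, housing and depth therefore cannot be told apart. Median coverage per cytosine ran from 39 to 55 reads. The method, enhanced reduced representation bisulfite sequencing (ERRBS), reads CpG-rich fragments cut by restriction enzymes and does not separate 5-methylcytosine from its hydroxymethylated form. Bulk tissue was used, so a value between 0 and 100% can be a mixture of cell types, of alleles or of molecules within a cell type, which were not separated. As a check of the tissue, the 11 start cytosines of the hepatocyte gene Apoa2 averaged between 0 and 1.22% in the 4 mice. Its 2 starts were not separated. The start of the leukocyte factor Spi1 lay between 75.8 and 79.2%. The hepatocyte factor Hnf4a was intermediate, at 23.1 to 32.3%. The hepatocyte gene F2 had a mean of 19.4% over only 4 cytosines, and 7 of 10 hepatocyte markers had no measured promoter cytosine. The measured hepatocyte markers thus shared no common level, and Apoa2 was the lowest of them. The starts of the stellate cell genes Reln, Lrat and Des were also low, with means of 0.476, 3.595 and 10.01%, so a low start alone does not mark the hepatocyte.

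The RefSeq start windows of the receptors at both ends of the promoter range show how unequal the CpG supply is. They run from 250 bases before to 50 bases after the start on build GRCm38.p6, 5′ to 3′ on the strand of the gene, and capitals mark every CpG. Rxra, the RXR partner of many liver receptors, was the lowest of the liver metabolic list and Nr5a2, an orphan receptor that acts on bile acid genes, the highest. Nr6a1, the germ cell receptor, was the lowest of the other list and Nr2e3, the photoreceptor-specific receptor, the highest.
Rxra, chr2:27676951-27677250, plus strand: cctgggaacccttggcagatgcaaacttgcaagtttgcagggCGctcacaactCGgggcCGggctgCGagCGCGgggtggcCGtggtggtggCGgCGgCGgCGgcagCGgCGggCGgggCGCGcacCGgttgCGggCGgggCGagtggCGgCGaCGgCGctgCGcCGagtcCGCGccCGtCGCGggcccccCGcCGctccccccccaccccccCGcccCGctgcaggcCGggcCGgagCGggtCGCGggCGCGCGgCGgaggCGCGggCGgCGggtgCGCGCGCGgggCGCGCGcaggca
Nr5a2, chr1:136953581-136953880, minus strand: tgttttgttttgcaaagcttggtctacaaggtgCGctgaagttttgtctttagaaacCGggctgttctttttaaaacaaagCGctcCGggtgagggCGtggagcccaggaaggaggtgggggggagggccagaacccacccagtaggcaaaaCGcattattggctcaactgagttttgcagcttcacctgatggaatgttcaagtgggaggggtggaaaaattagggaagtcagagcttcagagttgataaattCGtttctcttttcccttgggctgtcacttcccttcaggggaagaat
Nr6a1, chr2:38926412-38926711, minus strand: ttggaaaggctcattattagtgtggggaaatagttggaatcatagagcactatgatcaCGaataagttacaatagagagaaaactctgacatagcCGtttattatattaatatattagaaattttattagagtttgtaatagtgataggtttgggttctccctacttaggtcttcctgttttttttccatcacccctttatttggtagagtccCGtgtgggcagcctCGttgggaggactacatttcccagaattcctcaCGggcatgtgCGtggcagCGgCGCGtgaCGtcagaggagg
Nr2e3, chr9:59950030-59950329, minus strand: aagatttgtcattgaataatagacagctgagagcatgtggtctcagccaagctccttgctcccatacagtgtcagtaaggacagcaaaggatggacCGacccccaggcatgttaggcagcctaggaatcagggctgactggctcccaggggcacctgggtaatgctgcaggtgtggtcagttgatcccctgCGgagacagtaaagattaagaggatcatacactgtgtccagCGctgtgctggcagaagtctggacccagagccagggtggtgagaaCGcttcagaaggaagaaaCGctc
The Rxra window holds 55 CpGs, 43 of them measured on at least 1 strand in every mouse, and only 0.253% of 32851 RefSeq windows hold as many. The windows of Nr5a2, Nr6a1 and Nr2e3 hold 7, 10 and 5 CpGs, against a median of 7 over all windows, and none of these was measured in all 4 mice. The site CCGG of MspI, an enzyme used in ERRBS, which reads the same on both strands, occurs 4 times in the Rxra window, 2 times in that of Nr5a2 and not in the other two, while 52.8% of all windows hold it. The promoter values of the last 3 genes therefore rest on cytosines beside the windows.

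Coverage of the starts differed between the lists. The bile acid receptor Nr1h4 (FXR) and the xenobiotic receptors Nr1i2 (PXR) and Nr1i3 (CAR) had no measured promoter cytosine, and Nr0b2 (SHP), a receptor that represses others, had 4. No gene of the other lists lacked promoter cytosines. Among all genes, 35% had none, against 3 of the 40 receptors. Promoters of the high CpG class, which hold a 500-bp window rich in CpG, numbered 4 of 9 in the liver metabolic list, 10 of 17 in the other tissue list and 14 of 14 in the broad list, beside 48.7% of all genes. The low class held Nr0b2, Nr1i2, Nr1i3 and Nr2e3, 4 of 40 beside 31.1% of all genes. These liver receptors were thus the least visible at their starts. The 4 cytosines of Nr0b2, inside its coding sequence 395 to 470 bp after the start, showed 11.1 and 9.40% in the Mixed mice and 10.4 and 10.2% in the B6 mice. Below, 4 values in a row are always those of the Mixed mice by number, then of the B6 mice by number.

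Where starts were measured, nearly all were unmethylated. Promoter means were below 20% in 35 of 36 receptors, beside 92% of all genes with a value, and above 10% in 3 of 36, beside 11% of all genes. The median promoter was at 0.399% over the receptors and 0.305% over 14634 genes. In the liver metabolic list, Ppara, the fatty acid receptor, stood at 0.214, 0.226, 0.231 and 0.128% over 96 cytosines. Rxra stood at 0.0797, 0.0806, 0.171 and 0.0965% over 164 cytosines. The thyroid hormone receptor Thrb stood at 0.236, 0.229, 0.136 and 0.124% over 67 cytosines at the first of its starts. These are values at which almost every read was unmethylated. They lie near the level that unconverted cytosines alone would give at the conversion rates the study reports. The oxysterol receptor Nr1h3 (LXRα) was slightly higher, at 0.882, 0.801, 0.627 and 1.03% over 13 cytosines. Nr5a2 was the only liver metabolic promoter above 10%, at 14.0, 13.5, 13.9 and 18.8% over 23 cytosines, with B6-2 above the other three. It fell to 9.66% with promoters of 500 bp and 7.59% with predicted transcripts included.

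**Figure D1:**
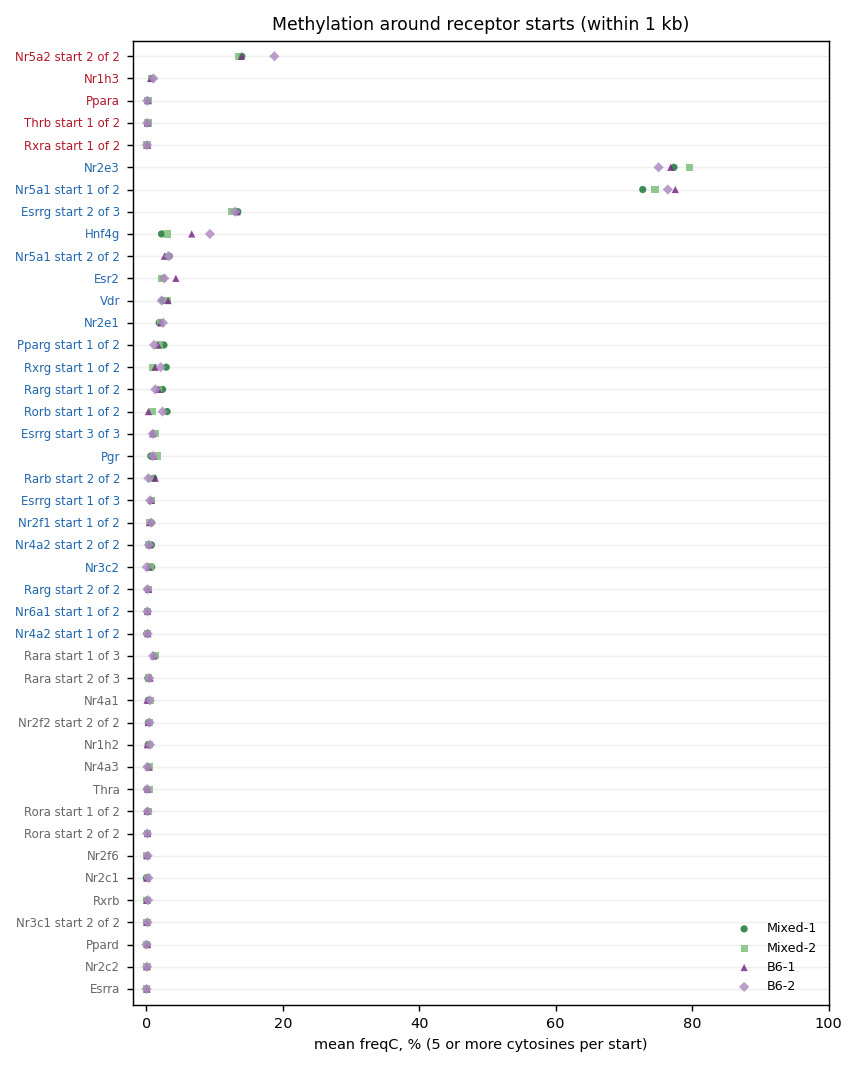
Mean freqC (percent) of each receptor start window with 5 or more cytosines, 1 marker per mouse, with gene names in red for the liver metabolic, blue for the other tissue and grey for the broad list. Only Nr2e3 and the upstream start of Nr5a1 lie above 70%, Nr5a2 and the second start of Esrrg lie between 10 and 20%, and the remaining starts lie below 10% in every mouse.

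The broad list was the most uniform. All 14 broad promoters had means below 1%, from 0.0363% in Esrra, an estrogen-related receptor of mitochondrial genes, to 0.676% in Rara, a retinoic acid receptor. In the other tissue list 12 of 17 promoters had means above 1%, and the list ran from 0.158% in Nr6a1 to 77.2% in Nr2e3. The share of all genes below 1% was not computed, but the median over all genes, 0.305%, is also below it. Between these, the gut receptor Hnf4g stood at 2.23, 3.14, 6.65 and 9.31% over 8 cytosines, with both B6 mice above both Mixed mice. The estrogen receptor Esr2, the vitamin D receptor Vdr and the neural receptor Nr2e1 had means of 2.92, 2.72 and 2.11%. Pparg, the fat cell receptor, had a mean of 1.83%, Rxrg 1.82%, the retina and brain receptor Rorb 1.66%, Rarg 1.14% and the progesterone receptor Pgr 1.06%. Rarb, Nr2f1, the mineralocorticoid receptor Nr3c2 and Nr4a2, a receptor of dopamine neurons, were below 1%. At the starts that were measured, receptors that the liver is not known for thus had mostly unmethylated reads, with the exceptions that follow. Rorb, Nr6a1, Rxrg, Nr2f1, Pparg and Rarb each also had a curated start with no measured cytosine within 1000 bp. The 6 promoter cytosines of Rorb lay 695 to 971 bp after its other start.

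Nr2e3 stood at 77.3, 79.6, 76.9 and 75.1%, but its 10 promoter cytosines lay 648 to 968 bp after the start, all in introns, and the start itself was not measured. Single cytosines there had means between 51.8 and 97.9%. The stretch that holds 9 of the 10, chr9:59949110-59949395 on the minus strand of GRCm38.p6, is shown because it sets the top of the promoter range, and its capitals mark the 7 CpGs measured in all 4 mice on at least 1 strand.
Nr2e3: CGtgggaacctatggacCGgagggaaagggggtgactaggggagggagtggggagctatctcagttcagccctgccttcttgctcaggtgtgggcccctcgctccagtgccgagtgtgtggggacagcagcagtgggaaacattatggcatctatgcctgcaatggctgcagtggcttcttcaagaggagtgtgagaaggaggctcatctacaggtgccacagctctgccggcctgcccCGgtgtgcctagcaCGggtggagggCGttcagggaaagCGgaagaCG
The rest of the gene was much the same, at 79.6, 78.0, 74.3 and 77.8% over 17 body cytosines, so methylation was as high beyond the window as inside it.

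Nr5a1 (SF-1), the receptor of steroid-producing glands, had 2 curated starts of opposite state 2308 bp apart. At the upstream start, 10 cytosines from 19 bp before to 247 bp after it stood at 72.8, 74.6, 77.5 and 76.4% in the 4 mice. At the downstream start, 58 cytosines from 177 bp before to 398 bp after it stood at 3.37, 3.15, 2.65 and 3.24%. The upstream group was itself uneven, with 8 of 10 cytosines at 70.6 to 98.5% and the other two at 8.85 and 19.5%. The gene value of 13.7% averages both starts and describes neither.

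Esrrg, an estrogen-related receptor of brain and heart, had a similar step within a single window. At its second group of starts the window mean was 13.4, 12.6, 13.3 and 13.0%. This came from 11 cytosines lying in the 590 bp before the start, at 68.5, 66.0, 68.2 and 67.5%, while 48 cytosines around the starts were at 0.795, 0.307, 0.730 and 0.533%. The other two groups of starts of Esrrg had means of 0.687 and 1.06%. The methylated stretch, chr1:187651168-187651397 on the plus strand, is printed with its 9 CpGs in capitals, all of them measured.
Esrrg: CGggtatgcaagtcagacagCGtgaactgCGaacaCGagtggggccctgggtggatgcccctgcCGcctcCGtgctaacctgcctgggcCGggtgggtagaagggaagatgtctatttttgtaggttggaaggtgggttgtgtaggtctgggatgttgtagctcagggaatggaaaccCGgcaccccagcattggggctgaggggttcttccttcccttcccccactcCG

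Nr5a2 differed from these in being partly methylated rather than split into high and low stretches. Its 23 promoter cytosines lay 79 to 773 bp after the downstream of its 2 starts, with single means from 1.42 to 46.4%, and the upstream start had no measured cytosine. The densest stretch, chr1:136952889-136953185 on the minus strand and inside the first intron, held 17 of them and stood at 15.8, 14.4, 15.8 and 19.4%. Capitals mark the 15 CpGs measured.
Nr5a2: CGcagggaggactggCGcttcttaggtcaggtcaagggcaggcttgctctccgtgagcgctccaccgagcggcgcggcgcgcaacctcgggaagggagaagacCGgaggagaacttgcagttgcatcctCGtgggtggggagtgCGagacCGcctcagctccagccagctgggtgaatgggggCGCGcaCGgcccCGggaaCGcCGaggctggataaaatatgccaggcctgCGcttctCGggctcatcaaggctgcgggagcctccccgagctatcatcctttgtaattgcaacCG

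**Figure D2:**
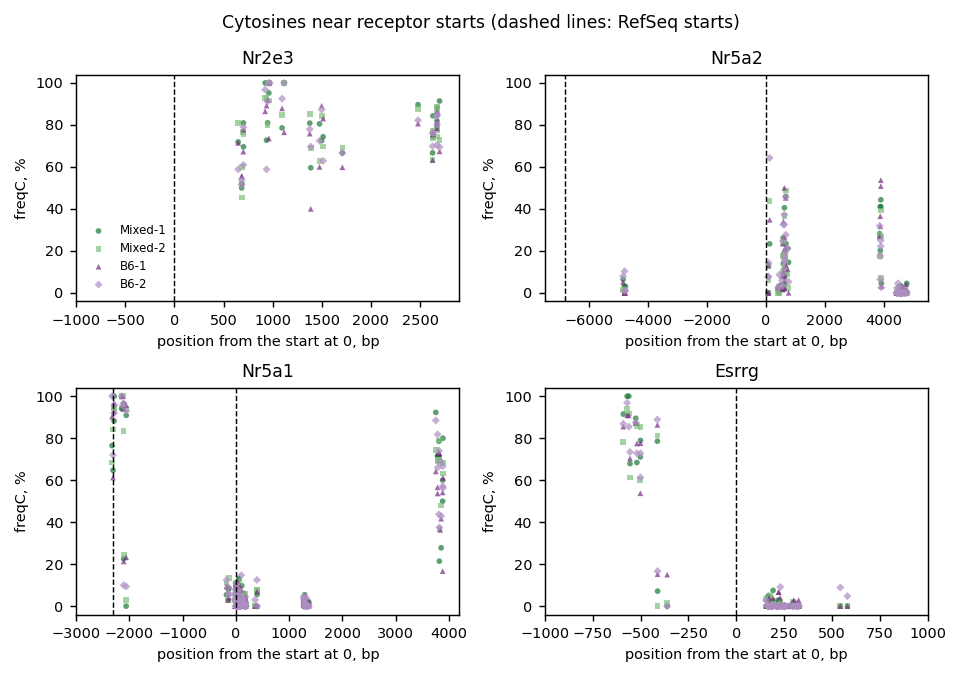
Percent freqC of single cytosines (1 marker per mouse) against distance in bp from the RefSeq start placed at 0, for Nr2e3, Nr5a2, Nr5a1 and the second group of starts of Esrrg, with all curated starts as dashed lines. Nr5a1 is high at the upstream start and low at the downstream one, Esrrg steps from high to low before its start, and Nr5a2 holds many values between.

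Averaged over genes, liver metabolic promoters were at 3.08, 2.97, 3.02 and 4.03% (mean 3.27% ± 0.506, SD, n = 4 mice, 5 genes) and other tissue promoters at 6.99, 6.90, 7.07 and 7.04% (6.999% ± 0.0710, 17 genes). The liver metabolic list was lower in 4 of 4 mice, by 3.72 percentage points (liver minus other -3.72 ± 0.482), with a two-sided exact permutation p of 0.12, the smallest that 4 mice allow. This p and SD measure repeatability over mice for fixed genes, and not the spread among genes. Its sign and size depended on single genes. Without Nr2e3, the other tissue list was at 2.61% ± 0.185 and the liver metabolic list was higher by 0.665 points in all 4 mice. Without Nr2e3, Nr5a1 and Nr5a2 together, a run chosen like the former after seeing the data, liver minus other was -1.54 points. With promoters of 500 bp the difference was -0.178 points, and at a minimum coverage of 20 it was 1.18. Of 16 alternatives, 14 kept the liver metabolic list lower, by up to -7.24 points with the core members of each list, and 2 turned the direction. The broad list was at 0.223% ± 0.0504. The lists also differed in coverage. The liver metabolic mean lacked Nr0b2, Nr1h4, Nr1i2 and Nr1i3, which had under 5 measured promoter cytosines, and with them every low CpG class promoter of that list. The other tissue mean kept the only low class promoter of its list, that of Nr2e3.

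Coregulators, the proteins through which receptors recruit chromatin enzymes, were compared as a list of 14 genes. All 12 with promoter values, corepressors such as Ncor1 and coactivators such as Ncoa1 and Med1, had means from 0.0930% in Nrip1 to 1.15% in Med1. Ncoa6 and Ppargc1a had no promoter cytosine. The list mean was 0.250% ± 0.0443, below the receptors at 3.85% ± 0.0931 in 4 of 4 mice, by -3.60 points (exact permutation p = 0.12). The receptor median of 0.399% lay far below the receptor mean, which the few methylated starts described above raise. All 12 coregulators were of the high CpG class, as were all 14 broad receptors, whose list mean was 0.223% ± 0.0504. A low mean was thus not particular to the coregulators.

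Inside the genes methylation was higher. Body means exceeded promoter means in every mouse in 29 of 32 receptors with both, beside 93.6% of all genes. Over those 32 genes bodies were at 54.8, 55.0, 54.0 and 54.2% and promoters at 4.12, 4.08, 4.04 and 4.14%, a difference of 50.4 points ± 0.450 in the same direction in 4 of 4 mice (exact permutation p = 0.12). Single bodies ranged widely. They were under 20% in 7 of 34 receptors, beside 10.7% of all genes, and over 80% in 9 of 34, beside 46.3% of all genes. The receptor median was 67.2% against 78.3% over 11185 genes.

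Liver metabolic bodies ran from low to high without a common level. Nr5a2 was the lowest at 14.7, 14.2, 15.6 and 13.5% over 76 cytosines, and Nr1h3 the highest at 82.6, 84.9, 80.5 and 82.3% over 7. With predicted transcripts included, the mean of the Nr5a2 body was 30.1%. Ppara stood at 28.0, 26.9, 28.5 and 33.5% over 19 cytosines. Rxra stood at 36.2, 36.2, 34.8 and 36.4% over 72. These 2 genes had low to intermediate introns in all mice, and the spread among mice was small beside the distance to the median of all genes. Nr1i2 stood at 45.2, 48.1, 48.8 and 54.3% over 18 cytosines, Nr1i3 at 68.2, 65.8, 69.6 and 68.4% over 15, and Thrb at 68.0, 71.5, 77.8 and 75.7% over 27. Nr1h4 had 4 body cytosines in 1 intron, at 25.9, 40.03, 28.1 and 25.6%, and Nr0b2 had none.

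Within these genes the level changed from place to place. In Nr1i2, 10 intron cytosines 13651 to 13844 bp after the start were at 29.4, 29.7, 29.5 and 33.9%, while 6 in a coding exon near its far end were at 69.5, 74.2, 79.0 and 84.0%. In Nr5a2, 39 cytosines in a stretch of 352 bp, 4433 to 4784 bp after the downstream start and overlapping a coding exon, were at 0.388, 0.275, 0.290 and 0.295%. Farther into Nr5a2, 7 intron cytosines 41126 to 41211 bp after that start were at 24.5, 26.4, 32.0 and 29.96%, and 3 at 91547 to 91581 bp were at 77.9, 77.3, 75.7 and 71.1%. The gene thus held unmethylated, intermediate and mostly methylated stretches. In Ppara, intron stretches lay between 4.04 and 32.2%, while 5 cytosines of a coding exon were at 62.8, 51.5, 50.0 and 61.3%. In Rxra, 10 cytosines of an intron 34116 to 34205 bp from a start were at 0.454 to 3.26%, and 11 in another intron at 61.6 to 65.1%.

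The intron stretch of Nr1i2, chr16:38280980-38281173 on the minus strand, and the coding exon and intron stretch of Nr1i3, chr1:171216773-171216939 on the plus strand, are printed because these receptors had no measured start. Capitals mark the CpGs measured, all 7 and all 9 of those present.
Nr1i2: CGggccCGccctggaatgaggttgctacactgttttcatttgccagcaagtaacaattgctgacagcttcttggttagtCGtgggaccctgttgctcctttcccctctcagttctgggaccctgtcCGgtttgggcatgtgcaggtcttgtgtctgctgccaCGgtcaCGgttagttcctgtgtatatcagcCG
Nr1i3: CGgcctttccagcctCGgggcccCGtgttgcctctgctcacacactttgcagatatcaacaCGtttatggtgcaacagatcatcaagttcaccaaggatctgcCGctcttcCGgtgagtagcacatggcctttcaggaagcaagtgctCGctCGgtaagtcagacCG
The Nr1i3 stretch, 2803 to 2969 bp after the start, stood at 63.8, 60.1, 64.5 and 64.8% over 12 cytosines, above the Nr1i2 intron stretch in each mouse.

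In the other tissue list the lowest body was Pgr, at 1.08, 0.929, 1.35 and 0.989% over 72 cytosines, all within 5 kb of the start, and the highest was Rarb, a retinoic acid receptor, at 89.2, 92.95, 92.1 and 91.9% over 48. In the broad list the lowest was Nr4a3, an immediate-early receptor, at 2.62, 2.98, 2.49 and 2.86% over 68 cytosines, and the highest was Nr2c2, at 95.3, 92.5, 94.4 and 94.99% over 11. The Mixed and B6 mice overlapped in all 4 of these genes. The other bodies below 20% were Nr2e1 (5.05%), Nr2f2 (5.29%), Nr4a2 (12.6%) and Nr2f1 (14.5%). Esr2, Esrrg, Nr2c1, Nr4a1, Nr1h2 and Ppard had bodies between 80.8 and 89.8%. The remaining bodies, from Nr2f6 at 32.8% to Rorb at 79.6%, included Rarg (35.0%), Nr3c1 (35.7%), Rara (42.9%), Nr5a1 (47.7%), Thra (65.7%), Esrra (67.2%), Nr3c2 (67.3%), Rxrg (68.0%), Rora (70.3%), Nr2e3 (77.4%) and Vdr (79.0%). Hnf4g and Nr6a1 had under 5 body cytosines, and Pparg and Rxrb had none.

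**Figure D3:**
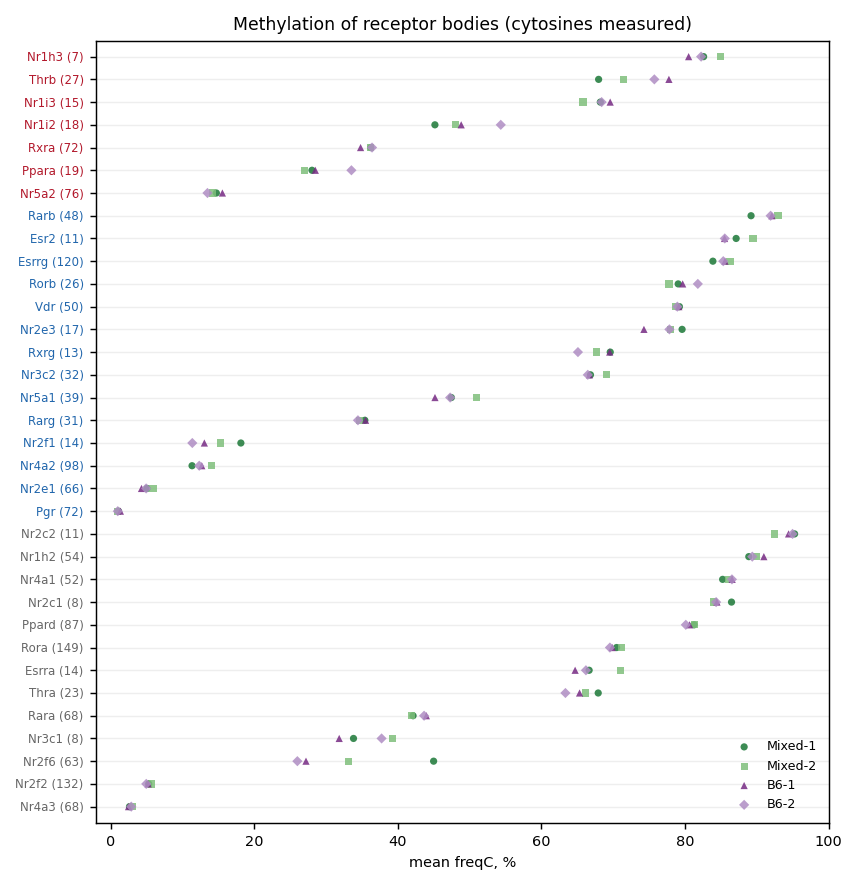
Mean freqC (percent) of receptor bodies with 5 or more cytosines (number in parentheses), 1 marker per mouse, with gene names in red for the liver metabolic, blue for the other tissue and grey for the broad list. Bodies run from 1.09% (Pgr) to 94.3% (Nr2c2), and the widest spread among mice is in Nr2f6.

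Averaged over genes, liver metabolic bodies were at 49.0, 49.7, 50.8 and 52.0% (50.4% ± 1.33, 7 genes) and other tissue bodies at 53.8, 54.4, 53.2 and 53.2% (53.6% ± 0.590, 14 genes). The difference was -3.27 points ± 1.81, lower in 4 of 4 mice (exact permutation p = 0.12). It depended on which cytosines, and with them which genes, were counted. Among cytosines over 5000 bp from every curated start of the gene, the liver metabolic list was at 44.5% ± 1.94 over 5 genes. The other tissue list was at 72.9% ± 0.847 over 10. The liver metabolic list was lower in 4 of 4 mice by -28.4 points ± 2.45 (exact permutation p = 0.12). Within 5000 bp the order was the opposite, 51.4% ± 0.235 over 3 genes against 27.6% ± 0.672 over 8 (23.8 points higher in the liver metabolic list, p = 0.12 in the same exact permutation test). The near and far classes held different genes, so position in the body and choice of genes were not separated. Of the liver metabolic genes only Nr5a2 had values in both, at 3.70% within and 34.1% beyond 5000 bp, opposite to the order of the list means. This division by distance was chosen after the values were seen. It used curated starts only and was not rerun with predicted transcripts.

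Far from the starts, 4 of the 5 liver metabolic receptors lay under 50%: Ppara at 29.3%, Nr5a2 at 34.1%, Rxra at 36.8% and Nr1i2 at 49.1%, with Thrb at 73.2%. In the other tissue list 1 of 10 did, Nr2e1 at 8.55%, and the other nine ranged from 67.3% in Nr3c2 to 91.7% in Rarb. In the broad list 3 of 10 did, Nr4a3 at 4.70%, Nr2f6 at 45.2% and Rara at 45.8%. Over all 8744 genes with 5 or more such cytosines the share under 50% was 11.3% and the median 82.2%, against list medians of 36.8, 80.03 and 75.7% for the liver metabolic, other tissue and broad lists. These are counts over few genes. Nr1h3 and Nr1i3, shorter genes, entered only the near class, at 82.6 and 68.0%.

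**Figure D4:**
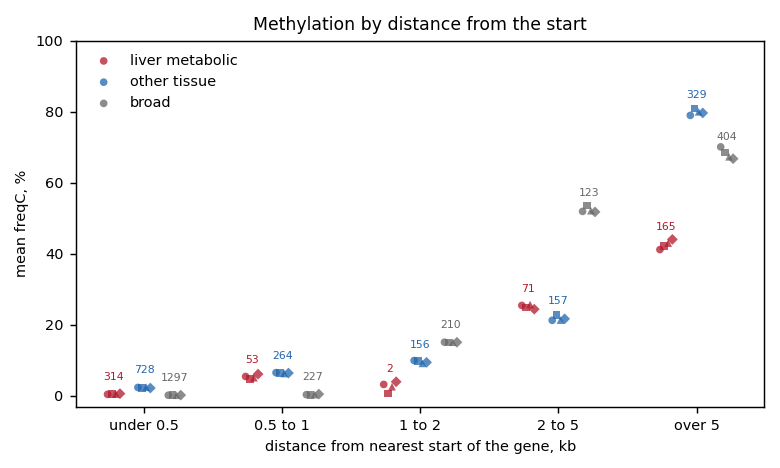
Mean freqC (percent) over single cytosines of the liver metabolic (red), other tissue (blue) and broad (grey) receptors by distance from the nearest curated start in kb, 1 marker per mouse (circle Mixed-1, square Mixed-2, triangle B6-1, diamond B6-2), with the number of cytosines above each group. All 3 lists are below 7% within 1 kb, and beyond 5 kb they separate to 42.6% (liver metabolic), 68.2% (broad) and 79.9% (other tissue).

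Single body cytosines were also counted by level. In the liver metabolic list 41.4% of body cytosines were under 20%, 17.5% over 80% and 41.1% between. In the other tissue list these shares were 41.2, 37.7 and 21.1%, and in the broad list 38.4, 40.4 and 21.1%, beside 29.4, 47.3 and 23.2% over the body cytosines of all genes. Rxra and Nr5a2 held most of the liver metabolic body cytosines, and without them the shares were 18.9, 36.4 and 44.7% over 90 cytosines. Of stretches with 5 or more body cytosines, 13 of 19 in the liver metabolic list lay between 20 and 80%, against 9 of 41 and 9 of 39. Several of the 19 came from Rxra, and the share over stretches of all genes was not computed. Cytosines of a stretch share reads and are not independent.

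Differences between Mixed and B6 mice were small. Receptor promoters averaged 3.80 and 3.78% in the Mixed mice and 3.83 and 3.98% in the B6 mice (-0.116 points, exact permutation p = 0.33, -0.195 without B6-1 and -0.0376 without B6-2), and bodies 54.9 and 55.1% against 54.4 and 54.7% (0.520 points, p = 0.33 in the same exact permutation test). With 2 mice a group, 0.33 is the smallest p this test can give. The median absolute difference of single cytosines was 0.126 points, and 95.1% of the 5090 lay within 10 points.

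A logistic model of methylated and unmethylated reads with a moderated overdispersion, adjusted by Benjamini-Hochberg over all common cytosines, called 0 of 5090 receptor cytosines at an adjusted p below 0.01 and 25 points or more. Over all cytosines 90 were called, or 0.00705%. At an unadjusted p below 0.05 there were 95 receptor cytosines, beside 2.09% of all cytosines. Fisher's exact test on pooled reads, which takes no account of the spread between mice, called 14 receptor cytosines beside 0.126% of all cytosines, and limma on log2 ratios called none of any gene. On simulated data the logistic model recovered 73% of cytosines given a difference of 50 points, so a difference of that size or smaller could pass unseen. The spread between mice was set in the simulation and not fitted to these data.

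The 3 receptor cytosines with the largest difference owed it to Mixed-1 alone. At chr12:76178608, 1349 bp upstream of Esr2, freqC was 0, 80, 98.4 and 91.7% over 35, 55, 61 and 72 reads. At chr1:187630781 in an intron of Esrrg it was 0, 91.2, 100 and 95%, and at chr1:187630622 in the same intron 0, 88.7, 88.9 and 96.7%. The unmethylated calls of Mixed-1 rest on 35, 25 and 41 reads, for which a count of 0 allows up to 8.57, 12 and 7.32% (counting error only), while the lowest 95% Wilson bound of the other mice was 67.6, 77.0 and 76.5%. Unadjusted p values of the logistic model were 0.00212, 0.0111 and 0.0103, and the adjusted p was 1 for all 3. The reference around each is printed on the strand of the cytosine (plus, minus and plus), with the CpG measured in capitals. A C-to-T base change in a mouse of undefined background also reads as unmethylated in this assay, and its part in these values was not tested.
Esr2: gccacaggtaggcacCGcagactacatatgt
Esrrg: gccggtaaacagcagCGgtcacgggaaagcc
Esrrg: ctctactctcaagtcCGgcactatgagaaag

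By region, 0 of 36 promoters and 0 of 34 bodies were called at an adjusted p below 0.05, beside 0% of all promoters and 0% of all bodies with the logistic model. No receptor promoter had an unadjusted p below 0.05, beside 4.24% of all promoters, and 7 bodies did, or 20.6% beside 12.9% of all bodies. Fisher's exact test on pooled reads called 18 of the 70 regions, beside 20.8% of all regions tested. The Mixed and B6 mice did not overlap in 12 of 36 promoters (33.3%, beside 35.2% of all genes) and in 20 of 34 bodies (58.8%, beside 37% of all genes). Of the 7 bodies with a low unadjusted p, 5 had the same sign by mean over cytosines and by pooled reads.

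The largest body difference was in Nr2f6, a COUP-TF family repressor, at 45.0 and 33.1% in the Mixed mice against 27.2 and 26.0% in the B6 mice (12.5 points, unadjusted p = 0.0126, adjusted p = 0.370 in the logistic model). It was singled out after its values were seen. A stretch of 39 cytosines over a coding exon and intron, 5602 to 5944 bp after the start, held most of it, at 58.5, 41.9, 33.8 and 32.6%. All 43 cytosines between 3 and 6 kb from the start were higher in the Mixed mean, and in 29 of the 43 both Mixed mice exceeded both B6 mice. Of the 33 with a mean of 20 to 80% this held in 23, beside 20.2% of all cytosines in that range, but the stretch was picked for its difference and its cytosines share reads. Mixed-1 and Mixed-2 differed from each other by more than Mixed-2 did from the B6 mice, and the promoter, with 211 cytosines at 0.0544 to 0.198%, did not share the pattern. The densest part, chr8:71376008-71376272 on the minus strand, holds 37 CpGs, of which the 34 measured are in capitals.
Nr2f6: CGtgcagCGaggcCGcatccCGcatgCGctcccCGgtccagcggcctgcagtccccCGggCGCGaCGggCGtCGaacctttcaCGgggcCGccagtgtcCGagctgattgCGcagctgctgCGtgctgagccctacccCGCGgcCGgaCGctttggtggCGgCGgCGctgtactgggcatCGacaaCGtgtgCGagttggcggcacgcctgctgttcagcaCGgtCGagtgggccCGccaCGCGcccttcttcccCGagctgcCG

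**Figure D5:**
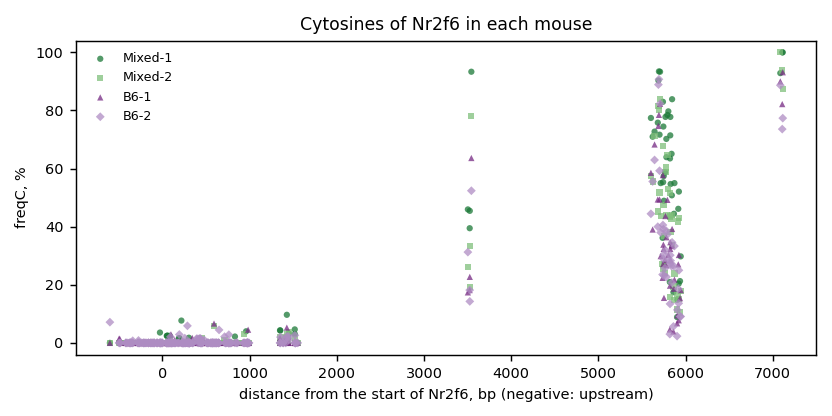
Percent freqC of single cytosines of Nr2f6 in each mouse against distance from its start in bp. Around the start all mice are near 0, and between 3 and 6 kb Mixed-1 is the highest, Mixed-2 lies between, and the B6 mice are lowest.

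Other receptors with mice apart were smaller or less regular. In Thrb, 8 intron cytosines stood at 14.96, 19.0, 34.4 and 33.1%, lower in both Mixed mice, opposite in direction to Nr2f6. Over the whole Thrb body, Mixed minus B6 was -7.02 points by mean over cytosines but 1.30 points by pooled reads. In Nr2f1 the body was at 18.1 and 15.3% in the Mixed mice against 13.0 and 11.4%. Nr1i2 was lower in the Mixed mice, at 45.2 and 48.1% against 48.8 and 54.3%, but by pooled reads the difference was only -0.268 points. None of the 3 passed the adjusted test, and all 3 were picked after their values were seen.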

How the data were processed

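ERRBS libraries of liver DNA from 4 mice were analysed, with mouse as the replicate and strain taken from the sample titles. Nothing beyond the titles ties Mixed-1 to B6-1 or Mixed-2 to B6-2. The authors digested DNA with restriction enzymes (the study names TaqαI and MspI for ERRBS), selected fragments, converted them with bisulfite and sequenced single-end reads mapped to mm10. The methods of the study name BSMAP, and the submitters' processing notes name Bismark and SAMtools, without versions. The deposited coverage is a raw count of reads per CpG cytosine and strand, with at least 10 reads. The deposited freqC and freqT are the percent of that coverage reading C and T, and reads with another base, present at 0.524 to 0.809% of sites, stay in it. An incomplete conversion raises freqC, which matters most at values near 0. The order among the lowest promoters, such as Rxra, Nr6a1, Esrra and Nrip1, is therefore not secure.

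Cytosines present in all 4 mice were placed on GRCm38.p6 RefSeq annotation, and 0 of 1276684 fell off a reference CpG. Promoters were within 1000 bp of any curated start and bodies the rest of the transcribed span. A gene value was the mean freqC over 5 or more cytosines, and a list value the mean of its genes. List differences were tested over mice with two-sided exact permutation tests (sign changes over 4 mice, relabelling for 2 against 2). The genes were fixed in these tests, so their p and SD do not cover the spread among genes. Strain differences per cytosine or region were fitted on the whole table with a logistic model of methylated and unmethylated reads, its overdispersion moderated with limma 3.58.1 (prior from cytosines at 20 to 80%, chosen on simulated data), and adjusted by Benjamini-Hochberg. Called cytosines had an adjusted p below 0.01 and 25 points, and called regions an adjusted p below 0.05. Tested on simulated data, the cytosine model recovered 146 of 200 changed cytosines of 100000 with 0 false calls. Sequences were read from RefSeq promoter windows, which held 36 of the 40 receptors, and from the genome.

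Members, lists and tests were chosen with earlier results of these data known. Values per mouse are given for all liver metabolic receptors, for receptor starts above 10%, for the lowest and highest body of each list and for the 3 cytosines with the largest strain difference; other genes were named after their values were seen. Python 3.11.15, scipy 1.17.1 and R 4.3.3 were used. Alternatives covered coverage, strands, pooling, transcripts, promoter size, lists, tools and leaving out mice. The RNA sequencing and zebrafish data of the study were not used here.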

Additional observations from a re-analysis of the deposited data

How the results depend on the processing

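Body above promoter methylation (50.4 points) and lower coregulator promoters (-3.60 points) kept their direction under all 11 alternatives each, but the coregulator difference was -1.17 at a minimum coverage of 20, -1.25 with promoters of 500 bp and -6.38 with 2000 bp. The liver minus other tissue promoter difference (-3.72 points) became 1.18 at that coverage and 0.665 without Nr2e3. It was -0.178 with 500 bp, -1.54 without Nr2e3, Nr5a1 and Nr5a2, -2.29 with each cytosine weighted alike, -7.13 with 2000 bp and -7.24 with core lists. At the higher coverage Nr2e3 had under 5 promoter cytosines, and at 500 bp none. The body difference (-3.27 points) became 3.02 with predicted transcripts included, 4.76 with promoters of 500 bp, 6.798 without Rxra and Nr5a2 and 23.8 within 5000 bp of the starts. It was -28.4 beyond 5000 bp, -11.1 with each cytosine weighted alike, -9.42 with core lists, -9.36 with 2000 bp, -8.64 with at least 10 cytosines and -5.89 with pooled reads. The classes by distance and the runs without named genes were chosen after seeing the data. Leaving out each mouse gave -3.96 to -3.62 for promoters and -3.98 to -2.76 for bodies. The Mixed minus B6 promoter difference (-0.116) became 0.0139 with at least 10 cytosines, which drops Hnf4g and Rorb, and 0.0320 without Hnf4g alone. It ran from -0.195 to -0.0376 on leaving out each mouse, was -0.0399 at a minimum coverage of 20 and -0.233 with promoters of 500 bp, and its body counterpart (0.520) ran from 0.369 to 0.671.

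Strain-variable receptor cytosines (0 as reported) numbered 14 by Fisher's exact test on pooled reads (1613 over all genes), 3 with a replicate block (387) and 0 to 5 on leaving out each mouse, all 5 without Mixed-2 (585). Strain-variable regions (0 of 70) numbered 18 by Fisher's test (5367 of 25819 over all genes) and 1 with the replicate block (155). Same-numbered mice did not deviate together from cytosine to cytosine (correlation 0.00040 over 148804 cytosines, 0.0233 over 448 receptor cytosines). A shift equal at all cytosines would not show in this correlation, and whether same-numbered mice shared a batch was not tested. With the replicate block the promoter difference stayed -0.116 and the body difference 0.520, each with an exact permutation p of 0.5, and the block recovered 0 of 200 simulated cytosines. Of 478 gene values under 7 alternatives, 377 moved by under 1 point and 20 by over 10, led by the Nr3c2 body (67.3 to 18.1% with predicted transcripts) and the Nr1h2 promoter (0.355 to 48.7% at 2000 bp). Coverage near 10 reads limits a single cytosine to steps of about 10 points, and 2 mice a group limit every strain contrast.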

Other observations

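Several receptors have an unmethylated start of another gene within 3 kb of their ends. In the Nr1h3 flank, 73 cytosines around the start of Madd stood at 0.0903, 0.197, 0.156 and 0.162% in the 2 Mixed and then the 2 B6 mice, although 5 cytosines in the Nr1h3 body were at 78.7 to 84.1%. In the Nr2f6 flank, 68 cytosines around the start of Ocel1 stood at 0.844, 0.748, 0.981 and 0.712%, and these showed none of the spread between mice seen inside Nr2f6. In the Esrra flank, 79 cytosines around the starts of Prdx5 and Trmt112 stood at 0.0176 to 0.218%, and in the Nr3c2 flank 71 around Gm10649 at 0.0740 to 0.244%.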
